A study of Mus musculus with 14 samples.

Results

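TMP195 was compared with Vehicle in tumours that LLC1 cells, a mouse line of Lewis lung carcinoma, had formed in mice. A gene was taken into the comparison when its mean over all 14 libraries of the series lay more than 1 log2 unit above the lowest value of the table, and 13711 of 21152 genes met this. The 3 TMP195 libraries came from mice given TMP195 at 50 mg/kg, and the 4 Vehicle libraries from mice given DMSO, both for 16 days. The series holds 7 further libraries, 3 of the combination of TMP195 and the MYC inhibitor MYCi975 (Combo, doses not given in the sources used here) and 4 of MYCi975 alone at 50 mg/kg. All 4 groups carry the same tumour line, and the RNA was taken from a suspension of tumour cells that the protocol calls an enriched tumour population. The sample titles call it bulk tumour, so which cells were sequenced is unclear. The labels do not say whether each library is a separate mouse, so every p-value measures the spread between libraries, which may in part be technical. They give no host strain, sex or age. Just inside the threshold on the mean lay Aoc2 and Plcd1 (means of 5.0468), and just outside it Hoxc8 and Kalrn (5.0466).

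TMP195 blocks HDAC4, HDAC5, HDAC7 and HDAC9, which form class IIa of the histone deacetylases. These proteins have little deacetylase activity of their own on histones. They move between nucleus and cytoplasm and repress genes as partners of sequence-specific factors, above all those of the MEF2 family, and of corepressor complexes that hold HDAC3. In tumours of mice the compound is known for acting on macrophages, and the series' title sets it in a study of mitochondrial dysfunction in lung cancer.

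Values are variance-stabilised log2 expression, and the lowest value of the table, 4.047, is the floor at which a gene counts as not detected. A gene was called separated when all 3 TMP195 libraries lay on one side of all 4 Vehicle libraries, and its gap is the distance between the nearest libraries of the groups. Differences are mean TMP195 minus mean Vehicle in log2 units, with 95% intervals from limma that were not adjusted for the number of genes. Where a separated gene is given without an interval, its interval may span 0. The depth of the libraries is unknown. Between 1056 and 2430 genes were at the floor in a TMP195 library and between 880 and 2744 in a Vehicle library, so the ranges of the groups overlapped. Of 7 listed markers of epithelial tumour cells 4 passed the filter, and Krt8, a simple epithelial keratin, was 7.87, 7.97 and 8.43 in the TMP195 libraries and 7.95, 8.26, 8.29 and 8.47 in the Vehicle libraries. Ptprc, the gene of CD45 on all leukocytes, was 10.46, 10.62 and 11.45 in the TMP195 libraries and 10.97, 10.26, 10.68 and 10.49 in the Vehicle libraries, so RNA of leukocytes was also present in all 7. In such bulk RNA, fewer cells of a type and less RNA per cell cannot be told apart.

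No gene passed limma's test of TMP195 against Vehicle after Benjamini-Hochberg adjustment over all genes (0 of 13711, 0%), and the smallest adjusted p was 0.9996. Unadjusted p was under 0.05 for 202 genes with a higher mean in TMP195 (1.47%) and for 179 with a lower mean (1.31%). Those numbers depend on single libraries: they were 132 and 99 without TMP195 replicate 2, and 276 genes were lower without TMP195 replicate 3. Together the 202 and 179 genes were 381 of 13711, a smaller share than the 0.05 that the threshold lets through where no gene differs. The groups were separated with TMP195 higher for 329 genes (2.40%) and with TMP195 lower for 256 genes (1.87%). When each library was centred on its median the numbers were 297 higher and 300 lower, so the excess of higher genes was not kept under that scaling. The shares above, under the scaling as deposited, are the background against which the members of each gene list below are counted. The lists and their members were chosen with earlier results of these data known. A share above the background is therefore a description and no independent support. Over all tested genes the median difference was 0.004, and 50.8% had a higher mean in TMP195. Everything that follows describes which genes lay apart in these 7 libraries, and none of it passed the test over all genes. With 3 and 4 libraries some genes lie apart under any assignment of the labels, so a separated gene is not by itself a trace of TMP195.

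The separated genes differed by little. The median difference was 0.31 for those higher in TMP195 and -0.31 for those lower, with 44 higher by more than 0.5 log2 units and 25 lower by more than 0.5. Limma's unadjusted p was under 0.05 for only 113 of the 329 higher and 93 of the 256 lower genes. The gap between the groups reached 0.1 log2 units in 85 of the higher and 71 of the lower genes and 0.25 in 13 and 10 of them. It was under 0.01 in 45 of the higher and 30 of the lower genes, where a minute shift of 1 library would join the groups. Of the separated genes, only Bmp4 was higher by more than 1 log2 unit, and 2 predicted genes, Gm2000 (-2.0) and Gm48494 (-1.38), were lower by more than 1. Both predicted genes were at the floor in TMP195 replicates 2 and 3, so their differences depend on where the floor lies. They were singled out after their values were seen. Of the 107 separated genes named by rule or pattern, 8 were not separated under median centring and 22 were not under quantile normalisation, 6 of them under neither.

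The largest mean differences belonged to genes whose groups overlapped. There were 9 such genes higher and 11 lower by more than 1 log2 unit, reaching 1.88 and -2.52. Among the lower ones was Myh4, a myosin heavy chain of fast skeletal muscle, with 4.80, 5.0 and 4.59 in the TMP195 libraries and 6.53, 7.21, 8.78 and 4.05 in the Vehicle libraries. Neb, which encodes nebulin of the muscle thin filament, was 5.16, 5.10 and 4.90 in the TMP195 libraries and 5.38, 6.48, 8.65 and 5.14 in the Vehicle libraries. For both genes Vehicle replicate 3 was highest and Vehicle replicate 4 lay among or below the TMP195 libraries.

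The share of genes separated higher in TMP195 was 1.87%, 2.16%, 2.66% and 2.92% in 4 equal bins of the genes, from the lowest to the highest mean expression. The share separated lower was 1.98%, 2.04%, 1.90% and 1.55% in the same bins. Higher genes thus leaned towards well expressed genes and lower genes did not, a description with no test. The bins were counted on the scale as deposited alone, and quantile normalisation left 282 genes higher and 316 lower in all. By annotated class, 2.52% of 11756 protein-coding genes were separated higher and 2.02% lower. Of 1296 long non-coding or unclassified genes 1.62% were separated higher and 0.694% lower, and of 376 pseudogenes 1.33% and 1.06%.

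**Figure D1:**
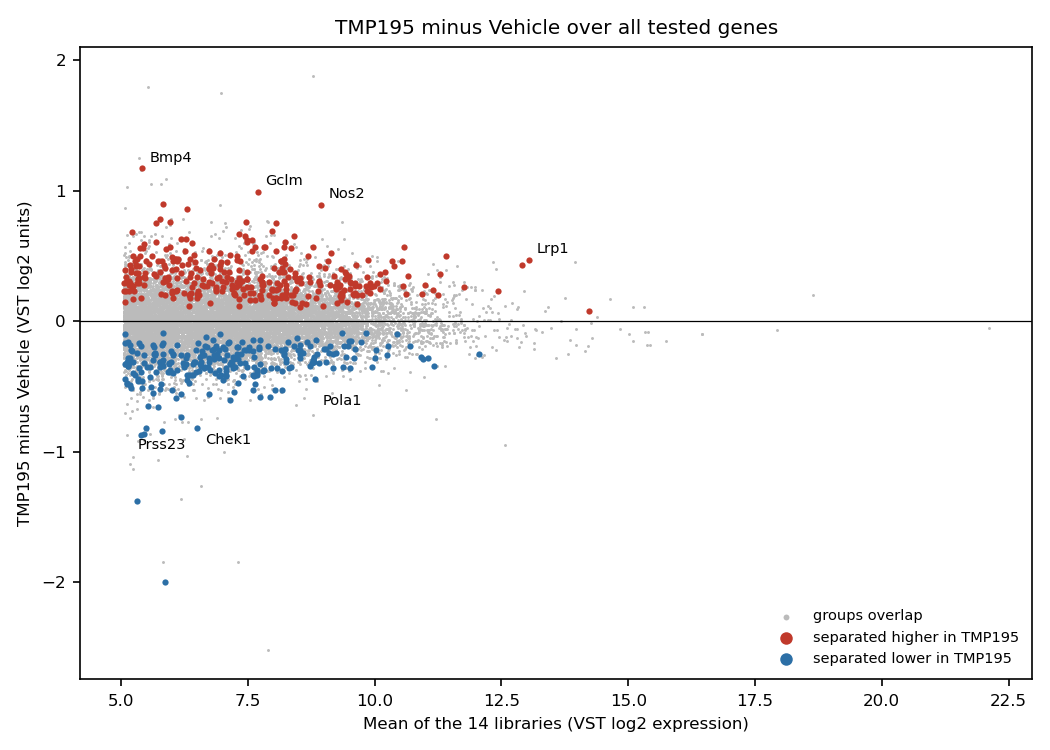
Difference of TMP195 minus Vehicle (vertical axis, log2 units) against mean expression over 14 libraries (horizontal axis, variance-stabilised log2) for each of 13711 tested genes. Red points are the 329 genes with all TMP195 libraries above all Vehicle libraries, blue points the 256 with all of them below, and grey points, which include the largest differences, are genes whose groups overlapped.

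The transcripts of the compound's targets were not separated on the scale as deposited, and Hdac5 was separated higher under quantile normalisation. Hdac4 (ENSMUSG00000026313.17) was 8.95, 8.89 and 8.36 in the TMP195 libraries and 8.76, 8.07, 8.29 and 8.13 in the Vehicle libraries, a difference of 0.42 (95% interval 0.05 to 0.79). Hdac5 (ENSMUSG00000008855.18) was 8.63, 8.04 and 8.42 in the TMP195 libraries and 7.93, 7.80, 8.06 and 7.79 in the Vehicle libraries, a difference of 0.47 (95% interval 0.17 to 0.76). For Hdac4 Vehicle replicate 1 lay among the TMP195 libraries, and for Hdac5 TMP195 replicate 2 lay just below Vehicle replicate 3. Hdac7 was 7.98, 8.08 and 7.89 in the TMP195 libraries and 7.89, 7.78, 7.79 and 8.0 in the Vehicle libraries. Hdac9 was 5.72, 5.54 and 5.75 in the TMP195 libraries and 5.76, 5.12, 5.88 and 5.65 in the Vehicle libraries. The groups overlapped for both, and these RNA levels do not measure the activity of the proteins. Of the 7 tested members of the list of class IIa deacetylases and MEF2 factors 6 had a higher mean in TMP195 and 0 were separated. Of 9 tested MEF2-responsive genes 3 had a higher and 6 a lower mean, with 0 separated, and their median of -0.03 was -0.25 without TMP195 replicate 3 and 0.11 without Vehicle replicate 1. The member with the smallest p was Adamts1, a secreted metalloproteinase, at 10.06, 9.65 and 9.49 in the TMP195 libraries and 8.33, 9.06, 8.73 and 9.76 in the Vehicle libraries, which overlapped through Vehicle replicate 4. The 13 tested genes of other deacetylases and their corepressors had 0 separated, and 11 of them had a lower mean in TMP195, or 6 without TMP195 replicate 2.

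Among the genes higher in TMP195, Bmp4 (ENSMUSG00000021835.16) had the smallest unadjusted p of all genes. It encodes a secreted ligand of the bone morphogenetic branch of the TGF-beta family. Bmp4 was 6.56, 6.35 and 5.88 in the TMP195 libraries and 4.99, 4.94, 5.85 and 4.58 in the Vehicle libraries, a difference of 1.17 (95% interval 0.62 to 1.73) with limma's unadjusted p = 0.00042. TMP195 replicate 3 and Vehicle replicate 3 were only 0.04 apart, while the other libraries of the groups lay more than 1 log2 unit from each other. Bmp5, a ligand of the same branch, went the other way and is described below with the lower genes. Of the 26 tested genes of TGF-beta and BMP signalling 17 had a higher mean in TMP195, with a median of 0.08 (0.05 without TMP195 replicate 3), and Bmp4 was the only one separated.

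Gclm (ENSMUSG00000028124.17) encodes the modifier subunit of glutamate-cysteine ligase, which catalyses the first step of glutathione synthesis, and is a textbook target of the antioxidant factor NRF2. It was 8.20, 8.70 and 7.96 in the TMP195 libraries and 7.32, 7.01, 7.82 and 7.02 in the Vehicle libraries, a difference of 0.99 (95% interval 0.44 to 1.55). Vehicle replicate 3 was the highest of its group and came within 0.14 of the nearest TMP195 library. The promoter of Gclm is shown because NRF2 acts through the antioxidant response element, whose core is TGACNNNGC. The window of RefSeq (GRCm38.p6, chr3:122245307-122245606, plus strand, 250 bases before to 50 after the start) holds this core once, on the reverse strand at -134 from the start, in capitals below. The core stood in 12.5% of the 27025 promoter windows on either strand, so that its presence is a description only.
Gclm: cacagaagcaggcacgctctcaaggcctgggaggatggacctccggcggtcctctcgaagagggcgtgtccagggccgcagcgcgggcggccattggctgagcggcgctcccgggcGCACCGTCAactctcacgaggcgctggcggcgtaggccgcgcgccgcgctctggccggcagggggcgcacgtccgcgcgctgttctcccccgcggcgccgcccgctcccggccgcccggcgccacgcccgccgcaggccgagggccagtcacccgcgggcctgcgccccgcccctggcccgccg

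Hmox1, which encodes haem oxygenase 1 and is another NRF2 target, was 10.87, 10.99 and 10.86 in the TMP195 libraries and 10.22, 10.52, 10.56 and 10.49 in the Vehicle libraries, with a difference of 0.46 (95% interval -0.08 to 1.0). All 3 TMP195 libraries lay at least 0.30 above the highest Vehicle library. Osgin1, an oxidative stress-induced growth inhibitor, was 5.97, 5.83 and 5.87 in the TMP195 libraries and 5.81, 5.56, 5.76 and 5.58 in the Vehicle libraries, a narrow separation (95% interval -0.24 to 0.67). These 3 were the separated members among 16 tested genes of antioxidant defence (18.8%, against 2.40% of all genes), and 11 of the 16 had a higher mean in TMP195. The median of the whole list was 0.08, and -0.01 without TMP195 replicate 3, so its direction was not kept without that library.

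Snrk, a kinase related to AMPK, was 7.52, 7.64 and 7.89 in the TMP195 libraries and 7.34, 7.08, 6.84 and 6.90 in the Vehicle libraries, a difference of 0.65 (95% interval 0.29 to 1.0). Ccng2 encodes cyclin G2, an unconventional cyclin linked to cell cycle arrest, and was 8.15, 7.54 and 8.0 in the TMP195 libraries and 7.36, 6.99, 7.35 and 7.41 in the Vehicle libraries, a difference of 0.62 (95% interval 0.27 to 0.96). In both genes every TMP195 library lay more than 0.1 above the highest Vehicle library. Klhl24, an adaptor of cullin 3 ubiquitin ligases, was 8.90, 9.24 and 9.11 in the TMP195 libraries and 8.85, 8.51, 8.65 and 8.03 in the Vehicle libraries. Pax9, a paired-box transcription factor, was 6.19, 6.30 and 5.92 in the TMP195 libraries and 5.62, 5.67, 5.60 and 5.47 in the Vehicle libraries. Klhl24 was only just separated, through Vehicle replicate 1, while Pax9 had a gap of 0.25.

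Arap3 had the widest gap of the higher named genes, 0.57. It encodes a GTPase-activating protein for small GTPases that binds the lipid product of PI3K. Arap3 was 7.70, 7.88 and 7.79 in the TMP195 libraries and 7.13, 7.11, 6.81 and 7.09 in the Vehicle libraries, a difference of 0.76 (95% interval 0.27 to 1.25). Mreg, which encodes melanoregulin of organelle trafficking, was 5.68, 5.79 and 5.58 in the TMP195 libraries and 5.11, 5.07, 5.13 and 4.70 in the Vehicle libraries, with a gap of 0.46. Rbms3, an RNA-binding protein, was 7.52, 7.70 and 7.51 in the TMP195 libraries and 7.13, 6.81, 6.69 and 7.0 in the Vehicle libraries. For Arap3 the spread within each group was smaller than the gap, and Rbms3 stood 0.38 above the Vehicle libraries.

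Kdm4b encodes a demethylase of histone H3 lysine 9 that is induced by hypoxia. It was 7.79, 7.72 and 7.99 in the TMP195 libraries and 7.37, 7.09, 7.34 and 7.11 in the Vehicle libraries, a difference of 0.61 (95% interval 0.18 to 1.04). Every TMP195 library lay at least 0.36 above the Vehicle libraries. Fndc3b, a membrane protein of the endoplasmic reticulum with fibronectin domains, was 10.32, 10.25 and 10.41 in the TMP195 libraries and 9.96, 10.04, 9.87 and 9.93 in the Vehicle libraries, with narrow ranges in both groups. Slc35a2, the UDP-galactose transporter of the Golgi, was 5.95, 6.13 and 5.69 in the TMP195 libraries and 5.42, 5.42, 5.39 and 5.03 in the Vehicle libraries. Tmc4, a transmembrane channel-like protein, was 5.58, 5.43 and 5.46 in the TMP195 libraries and 5.06, 4.98, 5.13 and 4.94 in the Vehicle libraries. Slc35a2 and Tmc4 both had gaps above 0.25, but neither exceeded 6.13 in any of the 7 libraries, not far above the floor. Ift140, a subunit of the intraflagellar transport complex of cilia, differed by 0.57 (95% interval 0.21 to 0.93), and Dhx8, a helicase that releases messenger RNA from the spliceosome, by 0.57 (95% interval 0.20 to 0.94), with gaps of 0.06 and 0.10.

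**Figure D2:**
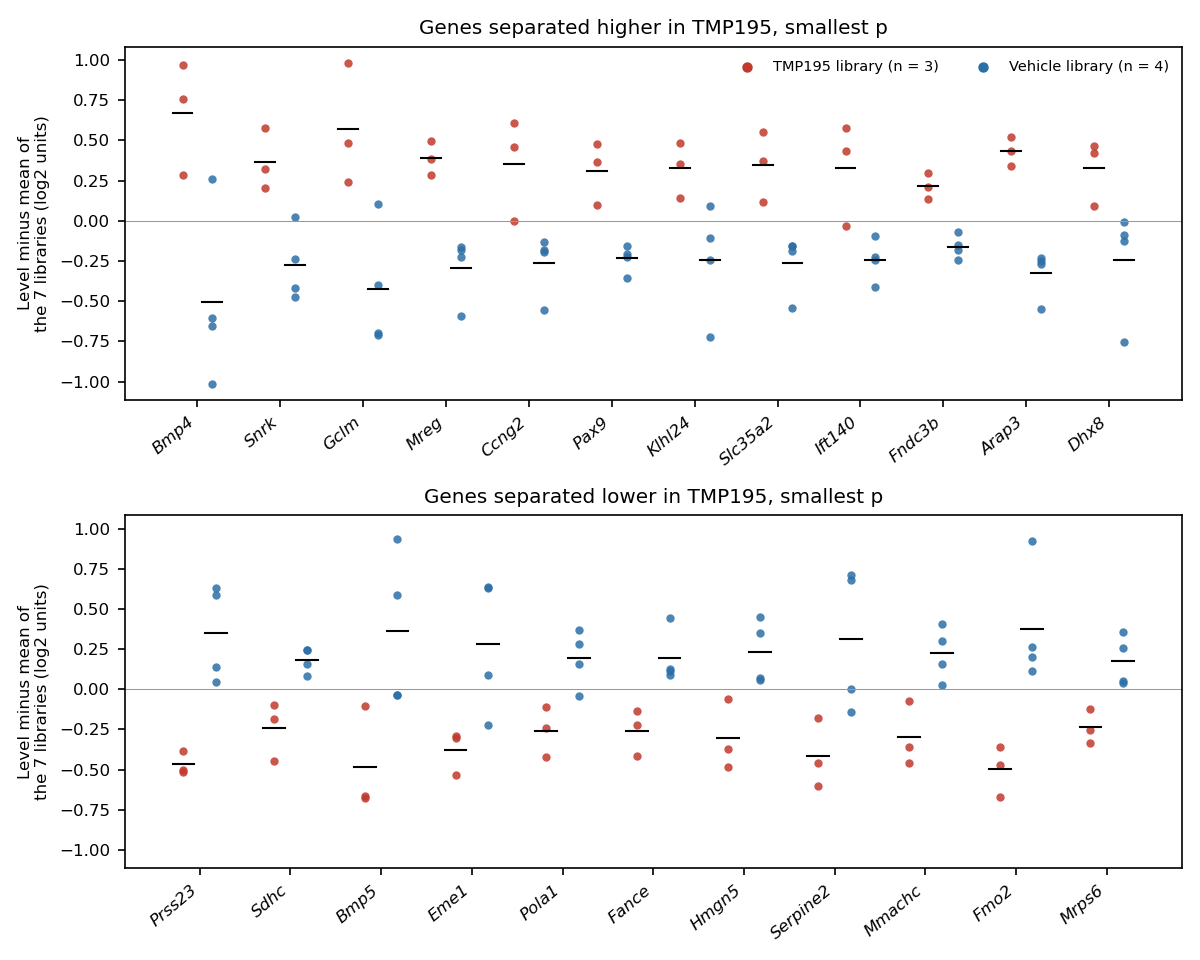
Levels of separated genes of smallest p, 12 in the upper panel (higher in TMP195) and 11 in the lower panel (lower in TMP195), each minus its mean over the 7 libraries, in log2 units. Red points are TMP195 libraries, blue points Vehicle libraries and black bars the group means, and gaps range from 0.04 for Bmp4 and Serpine2 to 0.57 for Arap3.

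Among the genes lower in TMP195, Prss23 (ENSMUSG00000039405.8), which encodes a secreted serine protease, had the smallest p. It was 5.09, 4.96 and 4.97 in the TMP195 libraries and 5.52, 6.10, 6.06 and 5.61 in the Vehicle libraries, a difference of -0.82 (95% interval -1.25 to -0.38). The 3 TMP195 libraries lay close together and 0.42 below the lowest Vehicle library. Serpine2, a secreted inhibitor of thrombin and urokinase, was 5.53, 5.67 and 5.95 in the TMP195 libraries and 6.13, 6.81, 5.99 and 6.84 in the Vehicle libraries. Bmp5 was 5.13, 5.69 and 5.12 in the TMP195 libraries and 5.76, 6.38, 6.73 and 5.76 in the Vehicle libraries, a difference of -0.84 (95% interval -1.40 to -0.28). Both were separated by less than 0.1, since 1 or 2 Vehicle libraries lay close to the highest TMP195 library.

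Sdhc (ENSMUSG00000058076.13) encodes a membrane anchor of succinate dehydrogenase, which is both complex II of the respiratory chain and an enzyme of the tricarboxylic acid cycle. It was 7.19, 7.45 and 7.54 in the TMP195 libraries and 7.79, 7.72, 7.88 and 7.88 in the Vehicle libraries, a difference of -0.42 (95% interval -0.69 to -0.16). Sdhc had all TMP195 libraries at least 0.18 below the Vehicle libraries. Mmachc, a cytosolic protein that processes cobalamin (vitamin B12) for its enzymes, was 5.63, 5.24 and 5.34 in the TMP195 libraries and 5.73, 6.11, 6.0 and 5.86 in the Vehicle libraries.

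Eme1, Fance and Pola1 act on DNA. Eme1 is a partner of the nuclease MUS81 at stalled replication forks and was 5.49, 5.48 and 5.25 in the TMP195 libraries and 5.87, 6.41, 5.56 and 6.42 in the Vehicle libraries. Fance, of the Fanconi anaemia core complex for the repair of crosslinks, was 6.10, 6.01 and 5.82 in the TMP195 libraries and 6.32, 6.36, 6.35 and 6.68 in the Vehicle libraries. Fance had the wider gap, 0.23. Hmgn5, a nucleosome-binding protein that loosens chromatin, was 7.83, 7.72 and 8.14 in the TMP195 libraries and 8.26, 8.55, 8.27 and 8.65 in the Vehicle libraries, a difference of -0.53 (95% interval -0.90 to -0.17). Fmo2, a flavin-containing monooxygenase, had the widest gap of the lower named genes, 0.47, with 4.98, 4.67 and 4.87 in the TMP195 libraries and 5.60, 5.54, 6.26 and 5.45 in the Vehicle libraries. The chloride channel gene Clcn2 (gap 0.38), the oxygen-binding globin gene Cygb (0.35) and Pik3r3, a regulatory subunit of PI3K (0.31), followed Prss23. Fmo2, Clcn2, Cygb and Pik3r3 were all weakly expressed, with no value above 6.26 in the 7 libraries.

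Genes of the response to low oxygen were among those higher in TMP195. Hypoxia-inducible factor is a transcription factor that is degraded when oxygen is present, and it induces glucose transport, glycolysis, lactate export and growth of vessels. Of 22 tested genes of the hypoxia list 17 had a higher mean in TMP195, 4 were separated higher (18.2%, against 2.40% of all genes) and 0 lower. The median of the list was 0.21, against 0.004 over all genes, and ranged from 0.15 to 0.26 when each of the 7 libraries was left out in turn. Ndrg1, a stress-responsive gene of growth restraint, was 11.28, 11.16 and 10.58 in the TMP195 libraries and 10.29, 10.53, 10.47 and 10.46 in the Vehicle libraries, a difference of 0.57 (95% interval 0.14 to 1.0). Mxi1, which competes with MYC for its partner MAX, was 10.13, 10.17 and 10.18 in the TMP195 libraries and 9.53, 9.82, 9.84 and 9.54 in the Vehicle libraries, a difference of 0.47 (95% interval 0.13 to 0.82). The TMP195 libraries of Mxi1 lay close together and 0.28 above the nearest Vehicle library, while Ndrg1 was not separated under quantile normalisation.

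Bnip3, a receptor for the removal of mitochondria by autophagy, was 9.50, 9.33 and 9.35 in the TMP195 libraries and 8.99, 9.07, 8.94 and 9.16 in the Vehicle libraries, a difference of 0.35 (95% interval 0.03 to 0.67). Vegfa, the principal growth factor of vessels, was 9.94, 9.69 and 9.85 in the TMP195 libraries and 9.42, 9.57, 9.61 and 9.62 in the Vehicle libraries, a difference of 0.27 (95% interval -0.17 to 0.71). The groups stood 0.16 apart for Bnip3 and 0.08 apart for Vegfa, whose interval spans 0.

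Of 21 genes of glycolysis and lactate 18 had a higher mean in TMP195, 5 were separated higher (23.8%) and 0 lower, with a median of 0.18 (lowest 0.12, without TMP195 replicate 1, and highest 0.23, without TMP195 replicate 2). Pgk1, Ldha and Slc2a1 stand in both this list and that of hypoxia, so the lists are not independent. Aldoa, the aldolase of the pathway, was 11.30, 11.30 and 11.59 in the TMP195 libraries and 11.26, 11.06, 11.24 and 11.08 in the Vehicle libraries. Pfkp, a phosphofructokinase, was 9.56, 9.64 and 9.77 in the TMP195 libraries and 9.50, 9.30, 9.35 and 9.13 in the Vehicle libraries. Aldoa and Pfkp were each highest in TMP195 replicate 3, and their nearest libraries were less than 0.1 apart. Gpi1, which converts glucose 6-phosphate to fructose 6-phosphate, was 11.49, 11.39 and 11.50 in the TMP195 libraries and 11.28, 11.28, 11.27 and 11.20 in the Vehicle libraries, and Pfkl, the liver form of phosphofructokinase, differed by 0.20 (95% interval -0.08 to 0.47). Slc16a3, the lactate exporter MCT4 and the fifth separated member, was 8.12, 8.53 and 8.39 in the TMP195 libraries and 8.02, 7.89, 8.09 and 7.74 in the Vehicle libraries. The differences of these 5 ran from 0.20 to 0.41, and the intervals of all 5 span 0. Under quantile normalisation 2 of the 21 genes were separated, since Aldoa, Pfkl and Gpi1 no longer were, while the median of the list was 0.17.

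The promoters of Bnip3 and Slc16a3 are shown because hypoxia-inducible factor binds the core ACGTG, capitals below, and Slc16a3 was chosen after its values were seen. The RefSeq windows (GRCm38.p6) are chr7:138909457-138909756, minus strand, for Bnip3 and chr11:120948817-120949116, plus strand, for Slc16a3. In Bnip3 the letters CACGTG hold the core on both strands, at -108 and -107 from the start, and in Slc16a3 it stands at -27 and -14. The core was found on either strand in 19.7% of all 27025 windows and in 10 of the 20 windows of glycolysis genes (50.0%). All windows include those of genes that were not tested. Both shares describe promoters only and say nothing of TMP195. Windows were at hand for 71.5% of the separated genes, too few for a share over them, and none is given.
Bnip3: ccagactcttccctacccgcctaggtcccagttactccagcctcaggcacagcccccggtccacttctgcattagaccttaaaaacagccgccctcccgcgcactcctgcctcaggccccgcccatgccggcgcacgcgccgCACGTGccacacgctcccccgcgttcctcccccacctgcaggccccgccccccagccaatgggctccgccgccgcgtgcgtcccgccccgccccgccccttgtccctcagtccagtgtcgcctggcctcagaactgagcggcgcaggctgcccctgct
Slc16a3: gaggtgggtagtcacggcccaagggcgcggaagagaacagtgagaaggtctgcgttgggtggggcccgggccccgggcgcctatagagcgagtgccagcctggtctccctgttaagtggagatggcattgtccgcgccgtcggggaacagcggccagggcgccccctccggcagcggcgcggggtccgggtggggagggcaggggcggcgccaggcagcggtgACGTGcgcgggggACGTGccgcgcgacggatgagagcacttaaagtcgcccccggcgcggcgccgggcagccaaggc

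Genes of DNA replication leaned the other way. Of 32 tested members 29 had a lower mean in TMP195, 3 were separated lower (9.38%, against 1.87% of all genes) and 0 higher. The median was -0.15, with -0.24 when TMP195 replicate 1 was left out and -0.08 when Vehicle replicate 3 was. Pola1 (ENSMUSG00000006678.7), the catalytic subunit of DNA polymerase alpha, was 8.74, 8.43 and 8.61 in the TMP195 libraries and 9.22, 8.81, 9.01 and 9.13 in the Vehicle libraries, a difference of -0.44 (95% interval -0.74 to -0.15). Gins2, a subunit of the replicative helicase, was 7.03, 6.66 and 7.19 in the TMP195 libraries and 7.32, 7.50, 7.78 and 7.41 in the Vehicle libraries, a difference of -0.54 (95% interval -1.0 to -0.09). Rfc4, of the complex that loads the sliding clamp, was 6.88, 6.78 and 6.87 in the TMP195 libraries and 7.16, 7.41, 7.23 and 7.09 in the Vehicle libraries. Rfc4 had the widest gap of these 3, 0.20, and Pola1 the narrowest, 0.07.

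The promoter of Pola1 is shown because genes of replication are known targets of E2F factors. The RefSeq window (GRCm38.p6, chrX:93632106-93632405, minus strand) holds the E2F motif TTTGGCGC on the reverse strand at -138 from the start, in capitals. With TTTCCCGC and TTTCGCGC counted too, on either strand, such a motif stood in 1.91% of all windows and in 11 of the 26 windows of replication genes (42.3%). Here too all windows include those of genes that were not tested, and both shares describe promoters only, not an effect of TMP195.
Pola1: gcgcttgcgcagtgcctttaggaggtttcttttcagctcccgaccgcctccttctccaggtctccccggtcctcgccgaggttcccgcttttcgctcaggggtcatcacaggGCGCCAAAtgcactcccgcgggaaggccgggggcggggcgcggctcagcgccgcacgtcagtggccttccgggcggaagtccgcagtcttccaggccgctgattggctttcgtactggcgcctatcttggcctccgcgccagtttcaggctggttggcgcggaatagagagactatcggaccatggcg

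The checkpoint kinases of the DNA damage response were both separated lower. Chek1, which acts downstream of ATR at stalled forks, was 6.17, 5.39 and 6.39 in the TMP195 libraries and 6.75, 6.85, 6.62 and 7.0 in the Vehicle libraries, a difference of -0.82 (95% interval -1.46 to -0.19). Chek2, which acts downstream of ATM, was 5.78, 5.82 and 5.85 in the TMP195 libraries and 5.97, 6.14, 6.0 and 6.48 in the Vehicle libraries, a difference of -0.32 (95% interval -0.86 to 0.21). TMP195 replicate 2 was far lower than the other TMP195 libraries for Chek1, and the gap was 0.23 even so. They were the only separated genes among 20 of that list (10.0% lower), of which 13 had a lower mean. The list's median was -0.13, and 0.0 without TMP195 replicate 3.

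Of 30 genes of mitosis and the spindle 26 had a lower mean in TMP195 (median -0.16, and -0.07 without Vehicle replicate 3), but 0 were separated in either direction. Ccna2, which encodes cyclin A2, was 8.77, 8.38 and 8.52 in the TMP195 libraries and 8.81, 8.44, 9.28 and 9.13 in the Vehicle libraries. Plk1, a kinase of mitotic entry, was 6.97, 6.87 and 6.96 in the TMP195 libraries and 7.32, 7.23, 7.42 and 6.94 in the Vehicle libraries. Vehicle replicate 2 of Ccna2 and Vehicle replicate 4 of Plk1 lay among the TMP195 libraries. Of 17 histone genes 14 had a lower mean and 0 were separated.

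MYC-responsive genes had the lowest median of the pathway lists, -0.19, with a range of -0.25 to -0.15 on leaving out each of the 7 libraries. Of 30 members 25 had a lower mean in TMP195, 3 were separated lower (10.0%) and 0 higher, or 5 lower under quantile normalisation. Cbx3, a heterochromatin protein, was 9.29, 9.26 and 9.20 in the TMP195 libraries and 9.51, 9.57, 9.63 and 9.73 in the Vehicle libraries, a difference of -0.36 (95% interval -0.65 to -0.08). Wdr74, a factor of ribosome assembly, was 6.56, 6.47 and 6.62 in the TMP195 libraries and 6.71, 6.86, 7.16 and 6.93 in the Vehicle libraries. Noc4l, of the assembly of the small ribosomal subunit, was 5.94, 6.01 and 5.94 in the TMP195 libraries and 6.13, 6.51, 6.10 and 6.09 in the Vehicle libraries. The groups stood 0.23 apart for Cbx3 and less than 0.1 apart for the other two. Ribosome biogenesis genes had 25 of 30 members lower and 0 separated. Of 82 cytosolic ribosomal protein genes 67 were lower and 0 separated, but their median of -0.07 became 0.05 without Vehicle replicate 2.

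Transcripts of mitochondrial proteins encoded in the nucleus had lower means in TMP195 in most lists, by less than 0.1 at the median, but not in the list of mitochondrial dynamics and mitophagy (median 0.07) nor in that of fatty acid oxidation (0.02). Of 78 genes of the mitochondrial ribosome 54 were lower, 3 were separated lower (3.85%) and 0 higher, with a median of -0.09 (-0.05 without TMP195 replicate 1). Under either scaling 5 were separated lower. Mrps6, of its small subunit, was 6.83, 6.62 and 6.70 in the TMP195 libraries and 6.99, 7.21, 7.31 and 7.0 in the Vehicle libraries, a difference of -0.41 (95% interval -0.71 to -0.11). Mrps2 was 6.82, 6.92 and 6.97 in the TMP195 libraries and 7.09, 7.15, 7.15 and 7.06 in the Vehicle libraries. The groups stood 0.16 apart for Mrps6 and 0.09 for Mrps2, while Mrpl50 of the large subunit was separated by under 0.01. The intervals of Mrps2 and Mrpl50 span 0.

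Of 39 genes of complexes II to V 25 were lower, and Sdhc and Uqcrfs1 were separated lower (5.13%). Uqcrfs1, the Rieske iron-sulphur protein of complex III, was 8.24, 8.36 and 8.25 in the TMP195 libraries and 8.45, 8.54, 8.56 and 8.37 in the Vehicle libraries. The median of that list, -0.07, became 0.03 without TMP195 replicate 1. Of 37 complex I genes 31 were lower and 0 separated. Ndufa9, an accessory subunit, was 6.44, 6.68 and 6.71 in the TMP195 libraries and 6.87, 6.94, 7.0 and 6.70 in the Vehicle libraries and overlapped through Vehicle replicate 4, though it was separated lower under either scaling.

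Of 21 genes of the tricarboxylic acid cycle Sdhc and Idh3a were separated lower (9.52%). Idh3a, the catalytic subunit of NAD-dependent isocitrate dehydrogenase, was 8.38, 8.46 and 8.36 in the TMP195 libraries and 8.52, 8.66, 8.78 and 8.66 in the Vehicle libraries, a difference of -0.25 (95% interval -0.48 to -0.03). Timm50, a receptor of the import channel of the inner membrane, was 6.30, 6.03 and 6.21 in the TMP195 libraries and 6.56, 6.64, 6.50 and 6.63 in the Vehicle libraries, a difference of -0.41 (95% interval -0.75 to -0.07). Tfam, which packages and transcribes mitochondrial DNA, was 7.53, 7.39 and 7.56 in the TMP195 libraries and 7.69, 7.70, 7.62 and 8.44 in the Vehicle libraries. Timm50 stood 0.20 below the Vehicle libraries, and Tfam 0.05 below the nearest, with Vehicle replicate 4 far above the rest. The interval of Tfam, -0.74 to 0.01, spans 0. Chchd3, a scaffold of the cristae, was also separated lower (difference -0.21).

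The 13 transcripts of the mitochondrial genome showed no steady direction. Their median was -0.15, but 0.45 without TMP195 replicate 1 and -0.52 without TMP195 replicate 3, and 0 were separated. Of 19 genes of fatty acid oxidation 10 had a higher and 9 a lower mean, and 0 were separated, with 8 to 14 higher on leaving out each library. Of 18 genes of cholesterol synthesis 15 were lower, among them Idi1, an isomerase of the pathway, at 8.44, 8.72 and 8.63 in the TMP195 libraries and 9.13, 8.72, 8.81 and 8.93 in the Vehicle libraries. Idi1 was separated by less than 0.01 and not under median centring. Me1, the cytosolic malic enzyme that supplies NADPH, was separated higher with 9.09, 9.20 and 9.09 in the TMP195 libraries and 8.81, 8.59, 8.84 and 9.02 in the Vehicle libraries, though not under quantile normalisation.

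The lists of macrophage polarisation and of phagocytosis also held genes that were separated higher. Of 16 genes of macrophage polarisation 13 had a higher mean in TMP195 and 3 were separated higher (18.8%). Nos2, the inducible nitric oxide synthase of inflammatory macrophages, was 9.55, 9.48 and 9.53 in the TMP195 libraries and 9.19, 8.46, 8.63 and 8.26 in the Vehicle libraries, a difference of 0.89 (95% interval 0.09 to 1.69). Mrc1, the mannose receptor CD206 of alternatively activated macrophages, was 10.09, 10.17 and 10.09 in the TMP195 libraries and 9.61, 9.51, 10.05 and 9.96 in the Vehicle libraries, a difference of 0.34 (95% interval -0.19 to 0.87). The TMP195 libraries of both genes lay within 0.1 of each other, well apart from the Vehicle libraries for Nos2 (0.29) and only just for Mrc1 (0.04). The third was Vegfa, given above. Genes of opposite polarisation states were thus higher side by side.

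Of 20 genes of phagocytosis and scavenging 18 had a higher mean and 3 were separated higher (15%). Cd47, the surface signal by which cells escape phagocytosis, was 10.47, 10.52 and 10.38 in the TMP195 libraries and 10.23, 10.12, 10.19 and 10.04 in the Vehicle libraries, a difference of 0.31 (95% interval 0.05 to 0.56). Lrp1, a large endocytic receptor of macrophages and fibroblasts, was 13.24, 13.50 and 13.20 in the TMP195 libraries and 13.0, 13.09, 12.56 and 12.71 in the Vehicle libraries, a difference of 0.47 (95% interval 0.07 to 0.87). The groups stood 0.15 apart for Cd47 and 0.10 for Lrp1, and Mrc1 was the remaining one. The median of the list was 0.26 but 0.04 without TMP195 replicate 3, the library with the highest Ptprc. The median of macrophage polarisation was 0.17 and 0.01 without it.

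Beside these lists, the summed level of 9 macrophage and monocyte markers ran from 11.64 to 12.46 in the TMP195 libraries and from 11.47 to 12.16 in the Vehicle libraries, and 3 of the 9 had a higher and 6 a lower mean, with Mrc1 the only one separated. That split rests on single libraries: all 9 had a higher mean without TMP195 replicate 1, TMP195 replicate 2 or Vehicle replicate 3, and 8 had a lower mean without TMP195 replicate 3. Mrc1 was not separated under quantile normalisation. Summed levels are log2 of the members' levels added on the linear scale, over all members with values, also those that failed the filter. Of 7 tested neutrophil markers all 7 had a higher mean and 0 were separated, and the summed level was 12.11 to 12.70 in TMP195 against 11.51 to 12.43 in Vehicle. Mmp9, the gelatinase of neutrophil granules, was 8.07, 7.80 and 7.22 in the TMP195 libraries and 6.93, 7.18, 7.33 and 6.80 in the Vehicle libraries, overlapping through TMP195 replicate 3. Their part in the results on macrophage and phagocytosis genes was not tested.

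Antigen presentation genes had the highest median of the pathway lists, 0.28, with 16 of 18 members higher, but the median was 0.0 without TMP195 replicate 3. Tap2, a subunit of the peptide transporter, was the only separated member, with 7.99, 8.04 and 8.25 in the TMP195 libraries and 7.91, 7.90, 7.96 and 7.48 in the Vehicle libraries. Of 26 interferon response genes 12 had a higher and 14 a lower mean, and 0 were separated. The number with a higher mean was 1 without TMP195 replicate 3 and 23 without TMP195 replicate 1, with medians of -0.26 and 0.14. T cell, B cell and NK cell markers had 0 separated members, as did the lists of chemokines, complement, immune checkpoints and cytotoxic effectors. Zbtb46, a factor of conventional dendritic cells, was separated lower with 5.46, 4.82 and 5.24 in the TMP195 libraries and 5.50, 5.66, 5.52 and 5.46 in the Vehicle libraries, while 3 of the 5 tested dendritic cell markers had a higher mean, or 1 without TMP195 replicate 3.

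**Figure D3:**
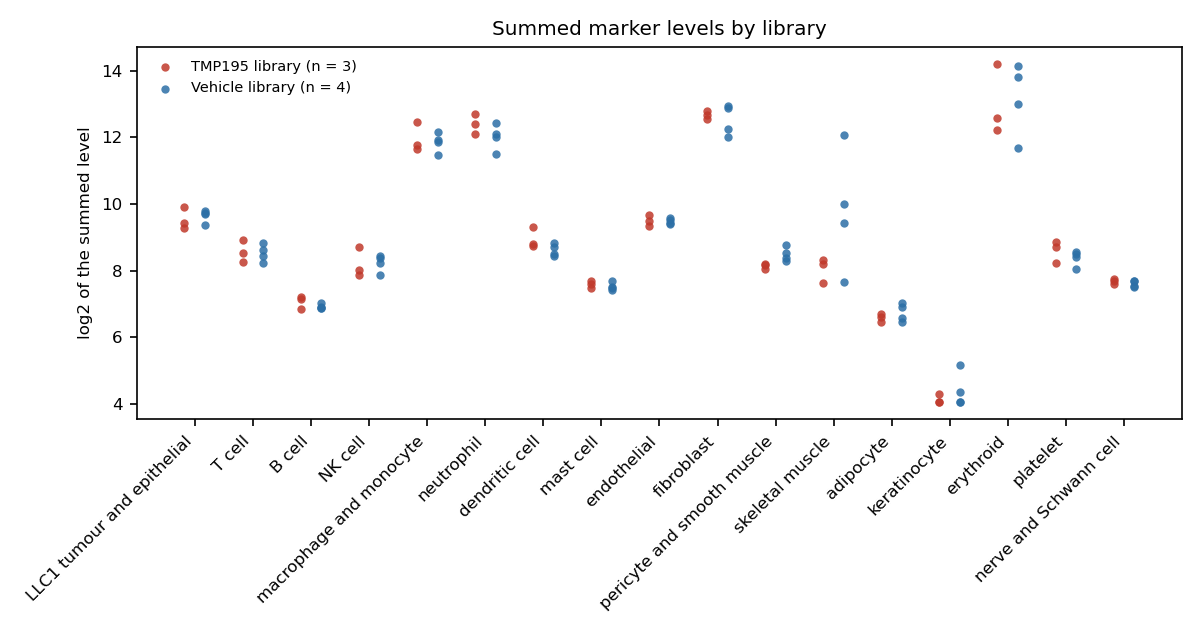
Summed level of each of 17 marker lists (vertical axis, log2 of the members' levels added on the linear scale) in each library, TMP195 in red and Vehicle in blue. The groups overlap in all lists other than that of pericytes and smooth muscle, where TMP195 lay at 8.06 to 8.20 and Vehicle at 8.29 to 8.78.

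The markers of pericytes and smooth muscle formed the only marker list of 17 whose summed level was separated. It was 8.06 to 8.20 in the TMP195 libraries and 8.29 to 8.78 in the Vehicle libraries, a narrow separation. Among so many lists one may lie apart under any assignment of the labels, which was not tested. The sum was over 6 members, of which 4 were tested, and 0 of these 4 were separated singly. Rgs5, a pericyte marker, was 5.52, 6.42 and 6.22 in the TMP195 libraries and 6.30, 6.53, 6.78 and 6.42 in the Vehicle libraries. Des, which encodes desmin of muscle and pericytes, was 5.33, 4.98 and 4.58 in the TMP195 libraries and 5.20, 5.61, 6.91 and 4.83 in the Vehicle libraries. Des is also a gene of skeletal muscle, whose 4 tested markers all had lower means in TMP195, with a summed level of 7.62 to 8.33 against 7.66 to 12.07 in Vehicle. The part of muscle RNA in the pericyte result was not tested. Of 7 fibroblast markers 4 had a higher mean and 0 were separated, with 2 to 5 higher on leaving out each library. Of 7 tested endothelial markers 5 had a lower mean and 0 were separated, with 3 to 6 lower on leaving out each library.

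Single genes of the matrix, of vessels and of cell contact were higher. Mmp14, a membrane-bound collagenase, was 11.46, 11.57 and 11.50 in the TMP195 libraries and 10.81, 11.03, 11.44 and 11.34 in the Vehicle libraries. Thbs1, the matrix glycoprotein thrombospondin 1 that restrains vessels and activates TGF-beta, was 12.82, 13.21 and 13.06 in the TMP195 libraries and 12.56, 12.46, 12.82 and 12.59 in the Vehicle libraries. Both were separated by less than 0.1, and neither was under quantile normalisation. Their 95% intervals span 0, at -0.01 to 0.72 for Mmp14 and -0.39 to 1.24 for Thbs1. Nrp2, a coreceptor of semaphorins and VEGF-C, was 11.17, 10.82 and 10.88 in the TMP195 libraries and 10.72, 10.46, 10.77 and 10.46 in the Vehicle libraries, a difference of 0.35 (95% interval 0.08 to 0.63). Of 13 Notch pathway genes the receptor Notch2 and the ligand Jag1 were separated higher (15.4%). Notch2 was 11.17, 11.17 and 10.96 in the TMP195 libraries and 10.86, 10.91, 10.82 and 10.70 in the Vehicle libraries. Jag1 was 6.66, 6.86 and 6.74 in the TMP195 libraries and 6.61, 6.21, 6.28 and 6.26 in the Vehicle libraries. Both were separated by no more than 0.1 with intervals that span 0, and the median of the list was 0.17 but 0.02 without Vehicle replicate 4.

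Regulators of chromatin were separated in both directions. Of 26 genes of polycomb, trithorax and DNA methylation Kdm6b, Kmt2c and Kdm6a were separated higher (11.5%) and Uhrf1 lower (3.85%), with a median of -0.03. Kdm6b and Kdm6a remove the polycomb mark from histone H3 lysine 27. Kdm6b was 9.21, 9.20 and 9.48 in the TMP195 libraries and 8.94, 9.05, 8.73 and 8.66 in the Vehicle libraries, a difference of 0.46 (95% interval -0.04 to 0.95). Kdm6a was 7.63, 7.73 and 7.72 in the TMP195 libraries and 7.34, 7.61, 7.62 and 7.57 in the Vehicle libraries, where the groups nearly touched. Kmt2c, a methyltransferase of histone H3 lysine 4, was 9.65, 9.66 and 9.66 in the TMP195 libraries and 9.64, 9.38, 9.32 and 9.45 in the Vehicle libraries. Uhrf1, which brings maintenance methylation to replicated DNA, was 9.08, 8.86 and 9.04 in the TMP195 libraries and 9.18, 9.12, 9.32 and 9.31 in the Vehicle libraries. Kdm6b stood 0.16 above the Vehicle libraries, and the others were separated by less than 0.1. The intervals of Kdm6a, Kmt2c and Uhrf1 also span 0. Kmt2c was not separated under median centring or quantile normalisation, and the median of the list lay between -0.06 and 0.02 on leaving out each library.

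Of 28 splicing factors 24 had a lower mean in TMP195, 3 were separated lower (10.7%) and 1 higher (3.57%). The median was -0.15, and -0.05 without TMP195 replicate 2. Srsf3, of the serine and arginine-rich family, was 9.79, 9.80 and 9.82 in the TMP195 libraries and 9.99, 10.22, 9.93 and 10.16 in the Vehicle libraries, a difference of -0.28 (95% interval -0.54 to -0.02). U2af1 and U2af2, which together recognise the 3′ splice site, were both lower. U2af1 was 8.54, 8.30 and 8.47 in the TMP195 libraries and 8.70, 8.59, 8.77 and 8.64 in the Vehicle libraries. U2af2 was 9.19, 9.13 and 9.33 in the TMP195 libraries and 9.38, 9.39, 9.46 and 9.39 in the Vehicle libraries. Prpf8, the central scaffold of the spliceosome, went the other way, with 11.15, 11.02 and 10.95 in the TMP195 libraries and 10.87, 10.84, 10.86 and 10.75 in the Vehicle libraries. Of these 4, Srsf3 had the widest gap, 0.11, and Prpf8 was not separated under quantile normalisation. The intervals of U2af1, U2af2 and Prpf8 span 0.

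Further lists had 1 separated gene in a direction. Higher in TMP195 were Sel1l of the degradation of misfolded proteins in the endoplasmic reticulum (difference 0.24), Bcl2l1, which encodes the survival protein BCL-XL (0.29), the remodeller gene Chd8 (0.32), the clock gene Nfil3 (0.32), the nucleoporin gene Nup98 (0.13) and Tsc1, a restraint on mTOR (0.14). Lower were Bok, a BCL2 family member that promotes cell death (-0.39), and the translation factor gene Eif4g2 (-0.25). Bcl2l1 was 8.68, 8.83 and 8.64 in the TMP195 libraries and 8.47, 8.27, 8.54 and 8.44 in the Vehicle libraries, and Bok was 5.78, 5.83 and 5.57 in the TMP195 libraries and 5.93, 6.35, 6.01 and 6.18 in the Vehicle libraries. Chd8 and Tsc1 were not separated under quantile normalisation. The gene of a protein against cell death and one of a protein that promotes it thus lay on opposite sides, each separated by about 0.1 log2 units. The 16 tested genes of the circadian clock had one of the highest medians, 0.25 (0.16 to 0.28 on leaving out each library), with 12 higher and Nfil3 alone separated. Of 31 genes of autophagy and lysosome 25 had a higher mean with 0 separated, and of 19 genes of one-carbon and nucleotide synthesis 16 had a lower mean with 0 separated. In all, 36 of the 84 lists had a separated member, and 34 of the higher and 27 of the lower separated genes belonged to any list, out of 1459 tested genes in lists. These are 2.33% and 1.85%, against 2.40% and 1.87% of all tested genes, so the lists taken as a whole held no more separated genes than the background.

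**Figure D4:**
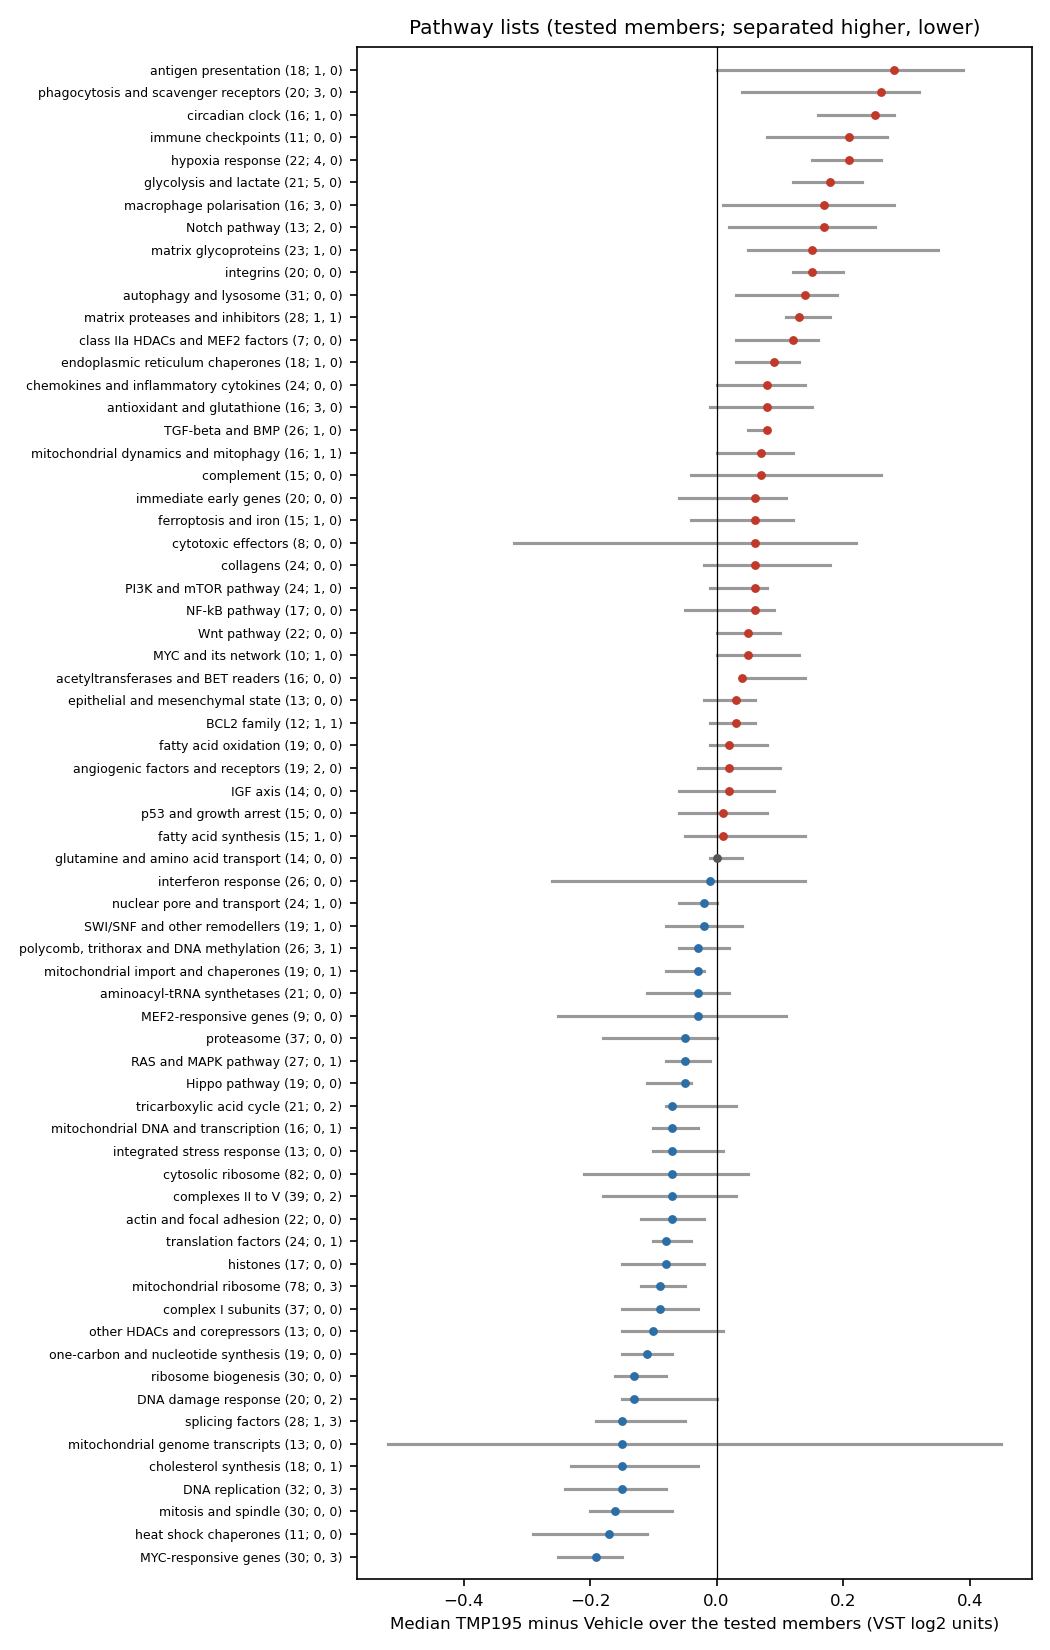
Median difference of TMP195 minus Vehicle (horizontal axis, log2 units) over the tested members of each of 67 pathway lists, red above 0 and blue below 0, with grey bars from the lowest to the highest median when each of the 7 libraries was left out in turn. Numbers after each name give the tested members and those separated higher and lower. Medians ran from 0.28 for antigen presentation to -0.19 for MYC-responsive genes. The bars of hypoxia, glycolysis, DNA replication and MYC-responsive genes stay on one side of 0, as do those of many other lists. Among these are circadian clock (0.16 to 0.28), integrins (0.12 to 0.20), heat shock chaperones (-0.29 to -0.11) and ribosome biogenesis (-0.16 to -0.08).

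The series offers TMP195 a further time on other libraries, as an addition to MYCi975. The 3 Combo libraries and 4 MYCi975 libraries entered the choice of the separated genes through the filter on the mean of all 14 libraries, but not through the separation itself. They show the same genes in other libraries, although the background of MYCi975 differs. Of the 329 genes separated higher with TMP195 152 also had a higher mean in Combo than in MYCi975 (46.2%), against 50.2% of all tested genes. Of the 256 genes separated lower 135 also had a lower mean in Combo (52.7%), against 49.8% of all tested genes. In all, 287 of 585 had the same sign (49.1%). The share was 68.0% without TMP195 replicate 3 and 40.1% without TMP195 replicate 1, each with its own set of separated genes.

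Combo and MYCi975 were themselves separated, with Combo higher, for 3.53% of all tested genes, and with Combo lower for 3.97%. Of the 329 genes higher with TMP195 8 were separated the same way in Combo (2.43%) and 9 the other way (2.74%). Of the 256 lower genes 9 were separated the same way (3.52%) and 5 the other way (1.95%). These shares are near or below the background of all genes, so the genes chosen between TMP195 and Vehicle did not recur between Combo and MYCi975 more often than genes at large. Limma's test of the difference between both comparisons passed for 0 genes after adjustment (smallest adjusted p = 0.911), with 656 genes at an unadjusted p under 0.05.

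The genes separated the same way in both settings were few and are named for that reason, after their values were seen. Higher were Ints1 of the Integrator complex, Jade2 and Bahcc1 of chromatin binding, Ganab of glycoprotein folding, the growth hormone receptor gene Ghr, Thap7, the clone 2900026A02Rik and 1 gene with no symbol. Ints1 was 8.94, 8.53 and 8.22 in the Combo libraries and 7.92, 7.94, 7.72 and 8.04 in the MYCi975 libraries, and 8.56, 8.44 and 8.20 in the TMP195 libraries against 8.05, 8.19, 8.09 and 7.64 in the Vehicle libraries. Ghr was 10.19, 10.23 and 9.97 in the Combo libraries and 9.94, 9.32, 9.77 and 9.93 in the MYCi975 libraries, and 10.01, 10.09 and 10.02 in the TMP195 libraries against 9.75, 9.98, 9.69 and 9.86 in the Vehicle libraries. Between TMP195 and Vehicle, Ints1 and Bahcc1 were not separated under median centring or quantile normalisation, Thap7 was not under median centring, and Ganab and Ghr were not under quantile normalisation. Ints1 was higher by 0.66 in Combo and by 0.41 in TMP195, and Ghr by 0.40 and 0.22.

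Among those lower in both were Hmgn5, Tfam, the cohesin subunit gene Rad21, the ubiquitin ligase gene Rlim, the deubiquitinase gene Usp15, Ahsa1, which activates HSP90, Srp54a of the signal recognition particle and 1 gene with no symbol. Hmgn5 was 7.86, 7.87 and 7.85 in the Combo libraries and 8.17, 8.46, 8.13 and 8.82 in the MYCi975 libraries, a difference of -0.54 beside -0.53 between TMP195 and Vehicle. Tfam was 7.51, 7.33 and 7.54 in the Combo libraries and 7.83, 7.79, 7.59 and 7.88 in the MYCi975 libraries, a difference of -0.31 beside -0.37. Hmgn5 differed by almost the same amount in both comparisons, and its Combo libraries lay within 0.02 of each other. Rad21 was not separated between TMP195 and Vehicle under quantile normalisation.

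The gene groups that stood out between TMP195 and Vehicle had other medians between Combo and MYCi975. The median of Combo minus MYCi975 was -0.12 for hypoxia response, -0.13 for glycolysis and lactate, 0.05 for DNA replication and -0.02 for MYC-responsive genes, against 0.21, 0.18, -0.15 and -0.19 for TMP195 minus Vehicle. It was -0.41 for macrophage polarisation and -0.27 for phagocytosis, against 0.17 and 0.26. Of the genes given above, Nos2 differed by -0.50 between Combo and MYCi975, Vegfa by -0.39, Bnip3 by -0.28 and Hmox1 by -0.35, all opposite in sign to TMP195 minus Vehicle. Gclm differed by 0.01, Bmp4 by 0.26 and Ndrg1 by 0.13. None of these Combo differences was separated. Genes at the floor numbered 892 to 2158 in a Combo library and 1803 to 2954 in an MYCi975 library, and the part of this in the medians was not tested.

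**Figure D5:**
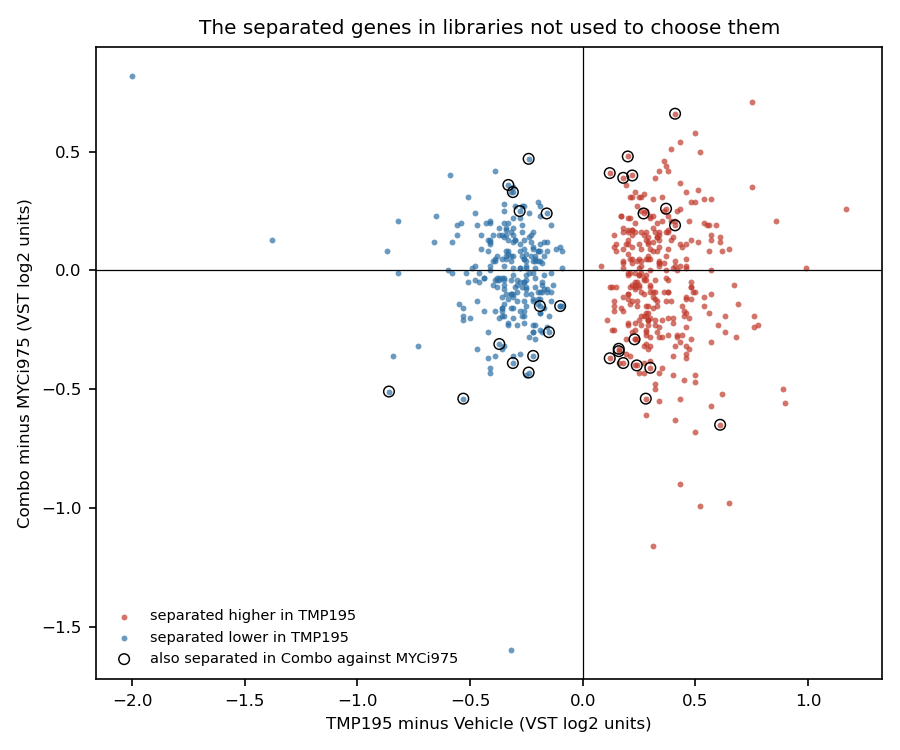
The 585 genes separated between TMP195 and Vehicle, by their difference there (horizontal axis, log2 units) and their difference between Combo and MYCi975 (vertical axis, log2 units). Red points were separated higher and blue points lower with TMP195, circles mark the 31 that were also separated between Combo and MYCi975, and 287 points (49.1%) lie in the quadrants of equal sign.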

How the data were processed

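RNA-seq of tumours was measured in 14 libraries, and 1 table of expression values was analysed. The authors deposited variance-stabilised normalised counts on a log2 scale, per the file name, and per the submitters' processing notes Salmon was used (version not given). Those notes name the human build hg38 while the gene IDs are those of mouse, so no gene coordinates from the table are given. The protocols in the labels describe a stranded total RNA kit. The sources used here give no raw counts, depth or filters. Groups came from the labels. Symbols were matched for 95.8% of IDs. Genes with a mean over 14 libraries above the floor of 4.047 plus 1 were tested with limma 3.58.1 (R 4.3.3; 1 mean per group, trended empirical Bayes, two-sided, Benjamini-Hochberg over 13711 genes), with 10 residual degrees of freedom, and the code was tested on simulated data. Separation was counted without a test. Members and lists were chosen with earlier results of these data known. Named were the deacetylases and Ptprc, in each direction the 12 separated genes with the smallest p and the 5 with the widest gap (no predicted genes), up to 4 separated members of a described list, or up to 2 where none was separated; a few genes that the rule names are not reported here, and further names are marked as chosen after seeing values. Deviations of equal replicate numbers of TMP195 and Vehicle had r = 0.107, 0.172 and 0.215 over genes, and TMP195 replicate 1 with Vehicle replicate 2 also had 0.107. Equal numbers of Combo and MYCi975 had 0.036, 0.147 and 0.058, and those of MYCi975 and TMP195 -0.003, -0.196 and -0.302. Whether the numbers mark a shared batch was not tested. The fit with a replicate block passed 0 genes. Alternatives changed the filter, the scaling, the gap and the libraries. Promoters came from RefSeq (GRCm38.p6), 1 window of 300 bases a gene.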

Additional observations from a re-analysis of the deposited data

Results flagged for a closer look

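In 15 of 128 named genes 1 Vehicle library lay far from the other 3 by Dixon's criterion. Chance alone meets it for about 1 gene in 20 where genes are not chosen on their values. Most of these genes were chosen on the same Vehicle values, and all genes were not counted, so an excess over chance was not tested. The far library was Vehicle replicate 4 in 8 genes, replicates 1 and 2 in 3 each and replicate 3 in 1. Replicate 4 was low for Mreg (4.70, others 5.07 to 5.13), Slc35a2 (5.03, others 5.39 to 5.42), Gpi1 (11.20, others 11.27 to 11.28), Tap2 (7.48, others 7.90 to 7.96) and Thap7 (5.39, others 5.82 to 5.85). It was high for Fance (6.68, others 6.32 to 6.36), Tfam (8.44, others 7.62 to 7.70) and Dap3 (7.48, others 7.32 to 7.33). Replicate 2 was low for Ccng2 (6.99, others 7.35 to 7.41) and Dhx8 (7.40, others 8.03 to 8.15) and high for Noc4l (6.51, others 6.09 to 6.13). Replicate 1 was high for Jag1 (6.61, others 6.21 to 6.28) and Dmxl2 (8.43, others 7.62 to 7.72) and low for Kdm6a (7.34, others 7.57 to 7.62). Replicate 3 was low for Arap3 (6.81, others 7.09 to 7.13).

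In 14 genes every library separated one way between TMP195 and Vehicle and the opposite way between Combo and MYCi975. Limma's test of the difference between both comparisons passed for 0 of these genes after Benjamini-Hochberg adjustment over all genes (adjusted p = 0.911 for the smallest of all). Higher with TMP195 and lower with Combo were Dmxl2 (difference of the differences, Combo minus MYCi975 less TMP195 minus Vehicle, -1.26 log2 units), Jdp2 (-0.82), Rnd1 (-0.71), Mgat5 (-0.64), Fxr2 (-0.57), Draxin (-0.52), Wipf1 (-0.50), Kdm6a (-0.50) and Cog1 (-0.48). Lower with TMP195 and higher with Combo were Arhgap6 (0.72), Ccdc77 (0.69), Bcl2l12 (0.64), March4 (0.54) and Dap3 (0.40). They were chosen because the directions were opposite. Between TMP195 and Vehicle, Dmxl2, Mgat5 and Wipf1 were not separated under median centring or quantile normalisation, and Draxin and Dap3 were not under quantile normalisation.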

How the results depend on the processing

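Limma's count after Benjamini-Hochberg adjustment was 0 genes under every alternative run, with and without the replicate block. With the replicate block over all 14 libraries 192 genes higher and 196 lower had an unadjusted p under 0.05, and the block changed no call. The smallest adjusted p was 0.234 without TMP195 replicate 3 and 0.188 without Vehicle replicate 3. The unadjusted counts, 202 higher and 179 lower, were 354 and 314 with no filter on low values, 328 higher with the replicate block in the 7 libraries alone (added after seeing the data), and 132 to 294 higher and 99 to 276 lower when each library was left out. The lowest of each came without TMP195 replicate 2.

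Separated genes numbered 496 higher and 400 lower with no filter, 85 and 71 with a gap of at least 0.1 and 13 and 10 with a gap of at least 0.25. Leaving out each library gave 327 to 1036 higher and 255 to 988 lower, and 36 to 69 lists with a separated member, as fewer libraries need to lie apart. Median centring gave 297 higher and 300 lower, of which 281 and 248 were also separated as deposited, and quantile normalisation 282 and 316 (253 and 234), with shifts of the median of all genes of -0.006 and -0.008.

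The share of separated genes with the same sign between Combo and MYCi975 was 42.9% at a gap of at least 0.1 and 40.1% to 68.0% when each library was left out, and 2.91% were separated the same way. Of 107 named separated genes 8 were not separated under median centring and 22 under quantile normalisation. Kmt2c, Ints1, Bahcc1, Dmxl2, Mgat5 and Wipf1 were lost under both, Idi1 and Thap7 under centring alone, and Ndrg1, Aldoa, Pfkl, Gpi1, Mrc1, Mmp14, Thbs1, Chd8, Prpf8, Me1, Tsc1, Ganab, Ghr, Rad21, Draxin and Dap3 under quantile normalisation alone. Hdac5 and Neb were separated under quantile normalisation alone and Ndufa9 under both. A separated gene cannot reverse its sign when a library is left out. Leaving out a Combo or MYCi975 library cannot alter the difference between TMP195 and Vehicle in any gene. The sign of the difference was kept in 2915 of 2917 values of named genes, an outcome that was thus partly fixed beforehand and does not measure stability. The exceptions were Hdac9 (-0.09 without Vehicle replicate 2, up to 0.16) and Ptprc (-0.06 without TMP195 replicate 3, up to 0.43), and the cause was not tested. Of 1490 list medians 30 moved by more than the spread between Vehicle libraries. The 1490 include fits without a Combo or MYCi975 library, where a median can move only through the filter. The share is thus no measure of how stable the medians were. Depth is unknown, and genes near the floor are the least certain.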

Other observations

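Several list members named by the rule overlapped between the groups and are given here as values. Dcn, which encodes decorin of the matrix, was 11.07, 11.11 and 11.41 in the TMP195 libraries and 10.53, 11.03, 10.53 and 11.25 in the Vehicle libraries, and Pdgfra, a receptor of fibroblasts, was 10.41, 10.11 and 9.67 in the TMP195 libraries and 9.70, 9.96, 9.43 and 9.46 in the Vehicle libraries. Both groups overlapped. Krt7, an epithelial keratin, was 5.66, 5.0 and 6.54 in the TMP195 libraries and 5.94, 5.95, 6.38 and 6.73 in the Vehicle libraries, so its TMP195 libraries spread over more than its Vehicle libraries. Lcn2, a protein of neutrophil granules, was 6.85, 6.69 and 5.66 in the TMP195 libraries and 6.39, 6.23, 5.39 and 6.03 in the Vehicle libraries. Mx2, an interferon-induced gene, was 5.18, 5.0 and 5.09 in the TMP195 libraries and 5.35, 5.0, 6.05 and 5.70 in the Vehicle libraries, where Vehicle replicate 2 lay among the TMP195 libraries. Ndufa5 of complex I was 6.80, 6.39 and 7.64 in the TMP195 libraries and 7.22, 7.11, 7.43 and 7.61 in the Vehicle libraries, with TMP195 replicate 3 the highest of all 7.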
